A study of Mus musculus with 12 samples.

Results

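The genes described here are 33 regulators and machinery of the G2 phase and of mitosis, chosen by name from a functional list: the cyclins that drive entry into mitosis, the kinases they work with, the spindle checkpoint, the kinetochore, the motors of the spindle and the proteins that split the cell. All 33 symbols were rows of the deposited table, which holds 24421 gene symbols, and all 33 were among the 15246 genes with enough reads to be tested. The measurements are bulk RNA-seq read counts from whole embryonic lungs of wild-type CD-1 mice. Lungs were isolated at embryonic day 12.5 and grown in a drop of Matrigel on a porous insert between medium and air. On the following day, called Day 0, a 20% solution of PEG-HCC, an 8-arm polyethylene glycol that a two-photon laser can harden, was added. Of the 12 libraries, 4 came from lungs at Day 0. Another 4 came from lungs kept for 2 days with the solution left liquid (Day 2 control), and 4 from lungs that a crosslinked wall of it enclosed for the same 2 days to restrict growth (Day 2 compression). Lungs of all 3 groups had thus been explanted and cultured, and none was measured fresh. The labels do not say whether a library is 1 lung or a pool, so p-values measure the spread between these samples, which may be technical.

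In a dividing cell these genes are switched on in late S and G2 phase, their products assemble and operate the spindle, and many of the proteins are destroyed as the cell leaves mitosis. Their transcript level in a tissue therefore follows, as general background, how many cells are cycling. The shared timing is known to depend on promoter elements. The cell cycle genes homology region (CHR) is bound by the DREAM complex, which silences the gene in resting cells, and by the B-MYB and FOXM1 complexes, which activate it in G2. Nearby CCAAT boxes are bound by the trimeric factor NF-Y. In the lung at this stage, epithelial tips and the mesenchyme around them both divide while the airway branches.

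Promoter windows from RefSeq (GRCm38.p6, 250 bases before to 50 bases after a transcription start) were found for 29 of the 33 genes. The 4 without one were Kif20a, Tpx2, Aurkb and Ccna2. The canonical CHR letters TTTGAA were present on either strand in 21 of 29 windows (72.4%), against 13.9% of the 11404 tested genes with a window and 20.2% of all 27025 genes with one. Its variant TTCGAA, also searched on both strands, adds Bub1, so that 22 of 29 windows (75.9%) held either form, against 15.9% of tested genes and 21.7% of all. CCAAT was present on either strand in 22 of 29 (75.9%), against 42.2% of tested genes and 41.1% of all. TTTGAA and CCAAT occurred together in 18 of 29 (62.1%) and in 6.81% of tested genes, and either CHR form with CCAAT in 19 of 29 (65.5%) and in 7.78%. No CHR match overlapped a CCAAT match. A match is a description of the letters and not evidence of binding, and a gene was counted when any of its windows held a match. The 8 promoter stretches that follow are shown because these genes carry the expression differences described further on: Ccnb2, Nek2, Hmmr and Ect2 rose in culture, Plk1 and Cenpa fell, and Ttk and Mki67 had the largest negative differences of compression against control. Each runs 5′ to 3′ on the gene's own strand from 130 bases before to 30 bases after the RefSeq start, in lower case. Capitals mark TTTGAA or CCAAT, or TTCAAA or ATTGG where the match lies on the other strand. The stretches lie at chr9:70421525-70421684 (Ccnb2, minus strand), chr1:191821343-191821502 (Nek2, plus), chr11:40733408-40733567 (Hmmr, minus), chr3:27153825-27153984 (Ect2, minus), chr7:122159305-122159464 (Plk1, plus), chr5:30666756-30666915 (Cenpa, plus), chr9:83834559-83834718 (Ttk, plus) and chr7:135716350-135716509 (Mki67, minus).
Ccnb2: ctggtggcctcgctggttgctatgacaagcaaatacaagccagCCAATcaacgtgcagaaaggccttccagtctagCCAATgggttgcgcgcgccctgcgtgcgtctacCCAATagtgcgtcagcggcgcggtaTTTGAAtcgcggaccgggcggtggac
Nek2: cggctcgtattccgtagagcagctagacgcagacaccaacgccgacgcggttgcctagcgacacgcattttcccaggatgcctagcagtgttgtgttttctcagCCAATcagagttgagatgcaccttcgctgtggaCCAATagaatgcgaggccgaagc
Hmmr: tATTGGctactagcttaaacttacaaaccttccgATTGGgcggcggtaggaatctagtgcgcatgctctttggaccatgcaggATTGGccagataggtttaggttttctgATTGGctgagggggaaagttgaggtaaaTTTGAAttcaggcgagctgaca
Ect2: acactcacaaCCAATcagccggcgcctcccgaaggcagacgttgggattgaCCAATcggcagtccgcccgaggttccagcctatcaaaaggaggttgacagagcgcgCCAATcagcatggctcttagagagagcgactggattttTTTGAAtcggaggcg
Plk1: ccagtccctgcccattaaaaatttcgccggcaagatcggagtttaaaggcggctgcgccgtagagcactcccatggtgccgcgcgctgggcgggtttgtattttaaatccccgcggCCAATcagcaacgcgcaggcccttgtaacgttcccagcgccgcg
Cenpa: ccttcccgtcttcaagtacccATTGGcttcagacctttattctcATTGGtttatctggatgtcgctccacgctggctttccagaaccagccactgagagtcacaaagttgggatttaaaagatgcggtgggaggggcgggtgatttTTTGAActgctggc
Ttk: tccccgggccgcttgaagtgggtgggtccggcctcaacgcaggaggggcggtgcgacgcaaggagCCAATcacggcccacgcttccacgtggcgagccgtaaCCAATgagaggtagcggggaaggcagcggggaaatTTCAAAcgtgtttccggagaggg
Mki67: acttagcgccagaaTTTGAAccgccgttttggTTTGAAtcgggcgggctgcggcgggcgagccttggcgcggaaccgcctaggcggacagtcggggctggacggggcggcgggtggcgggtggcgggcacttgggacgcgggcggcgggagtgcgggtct

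The arrangement was alike in many of the genes: CCAAT upstream and the CHR at or just past the start. Of 53 CCAAT matches in the 29 windows, 52 lay upstream of the start, with a median position of -78, and the exception was the Nek2 box at position 8. The 27 TTTGAA matches had a median position of 3, and 19 genes had one within 50 bases of the start. Ccnb2 held 3 CCAAT boxes at -87, -54 and -21, spaced 33 bases apart, and a CHR at position 5. Pairs 32 bases apart were found in Ccnb1, Cdk1 and Aurka, and pairs 33 bases apart in Hmmr and Nek2. The Nek2 window held no CHR match, the Plk1 match lay at position 31, just past the printed stretch, and the Mki67 CHR matches lay upstream, at -116 and -98. Mki67 also held CCAAT boxes at -188, -166 and -141, upstream of the printed stretch. A CCAAT box of Hmmr (-172) and a further TTTGAA of Ccnb2 (-167) and of Ect2 (-138) lay there too. TTTGAA was found both in genes that rose and in genes that fell in culture. It was present in 3 of the 4 genes that rose and in 4 of the 4 that fell between Day 0 and Day 2 control. Genes with it had a median log2 difference of -0.01 (21 genes) in that comparison and genes with a window but without it -0.07 (8 genes). Under compression against control these medians were -0.03 and -0.07.

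**Figure D1:**
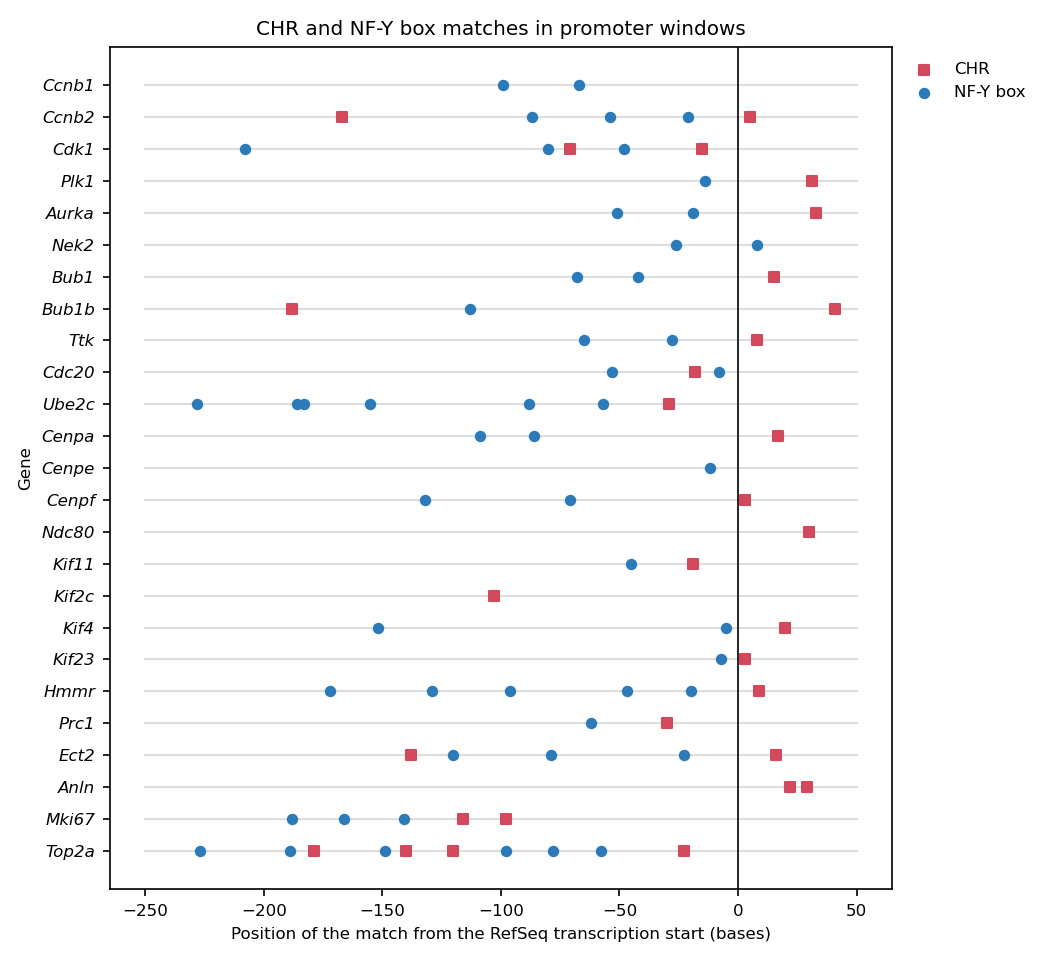
Position of CHR matches (TTTGAA or TTCGAA, red squares) and NF-Y box matches (CCAAT, blue circles) on either strand in the promoter windows of the 25 genes that hold at least 1 of them; the x axis is the distance in bases from the RefSeq transcription start. NF-Y boxes lie left of the start in all genes plotted except Nek2, where the second box is at position 8, while most CHR matches lie within 50 bases of it.

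Total counts per library ran from 13979871 to 33249761, so that 3 counts, the limit that a count of 0 allows, are 0.0902 to 0.215 CPM (read counts of a gene scaled by library size). The 33 genes lay far above this, at means of 51.8 to 854 CPM over the 12 libraries. Markers of lung tissue were present in every library, with epithelial markers summing to 1320 to 3070 CPM and mesenchymal markers to 4750 to 6640 CPM over the libraries. Composition differed with time: endothelial markers summed to 335 to 535 CPM at Day 0 and to 67.8 to 112 CPM at Day 2, and erythroid markers to 1080 to 2250 CPM and to 114 to 214 CPM, with Hba-a1 at 0 throughout. Leukocyte markers summed to 105 to 124 CPM at Day 0, 124 to 210 CPM in control lungs and 193 to 235 CPM in compressed lungs. Mesothelial markers summed to 151 to 204 CPM at Day 0 and 247 to 355 CPM at Day 2. The epithelial sum was 1320 to 1560 CPM at Day 0, 2210 to 2440 CPM in control lungs and 2460 to 3070 CPM in compressed lungs. Of its 10 markers, 6 were called higher and 2 lower against Day 0 in each Day 2 group. That is 80% called, against 40.2% of all genes in controls and 49.1% under compression. The mesenchymal sum was 5140 to 6120 CPM at Day 0, 4750 to 6330 CPM in control lungs and 5400 to 6640 CPM in compressed lungs. Of its 9 markers, 1 was called higher and 5 lower against Day 0 in controls. Under compression 2 were called higher and 4 lower. That is 66.7% called in each. The part of these shifts in the values below was not tested, and in bulk tissue fewer cells of a type and less RNA per cell cannot be told apart. Some libraries stood apart. Control replicate 4 held hepatocyte transcripts (markers summing to 1950 CPM, at most 106 CPM elsewhere). Compression replicate 4 had 5.64% of its counts on the ribosomal precursor Rn45s (0.553 to 2.67% elsewhere). Compression replicates 2 and 3, which share a number in their descriptions, were closer to each other than any other pair (dispersion 0.000879 against at least 0.00558), though they differed by more than counting error. Leaving out control replicate 4 left 8 genes called for control against Day 0, and leaving out compression replicate 4, or summing compression replicates 2 and 3, gave 14 and 13 called for compression against Day 0, against 14 with every library. Of all genes, 36.7%, 47% and 43.3% were called in these fits.

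Summed over the 33 genes, expression was 5838 ± 278 CPM at Day 0 (SD, n = 4), 5828 ± 249 CPM in control lungs and 5425 ± 283 CPM in compressed lungs. The libraries ran from 5521 to 6182, from 5507 to 6087 and from 5094 to 5752 CPM, so the 3 groups overlapped. Compression replicate 4 was the lowest of the 12 libraries, and compression replicate 1, at 5752 CPM, lay within the range of the other groups. Expressed per kilobase of transcript, Top2a had the highest Day 0 level (168 CPM per kb), followed by Ube2c (115), Birc5 (87.6), Ccna2 (82.8) and Mki67 (82.3). Nek2 had 14.8 and Kif4 21.6 CPM per kb. Replicates of these genes were close: the median coefficient of variation over the 33 was 7.95% at Day 0, 5.72% in controls and 6.81% under compression, against 10.9%, 9.33% and 9.8% for all genes tested. The median level of the 33 was 122 CPM, against 26.2 CPM for all genes tested, and this comparison of spread was not matched for level.

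**Figure D2:**
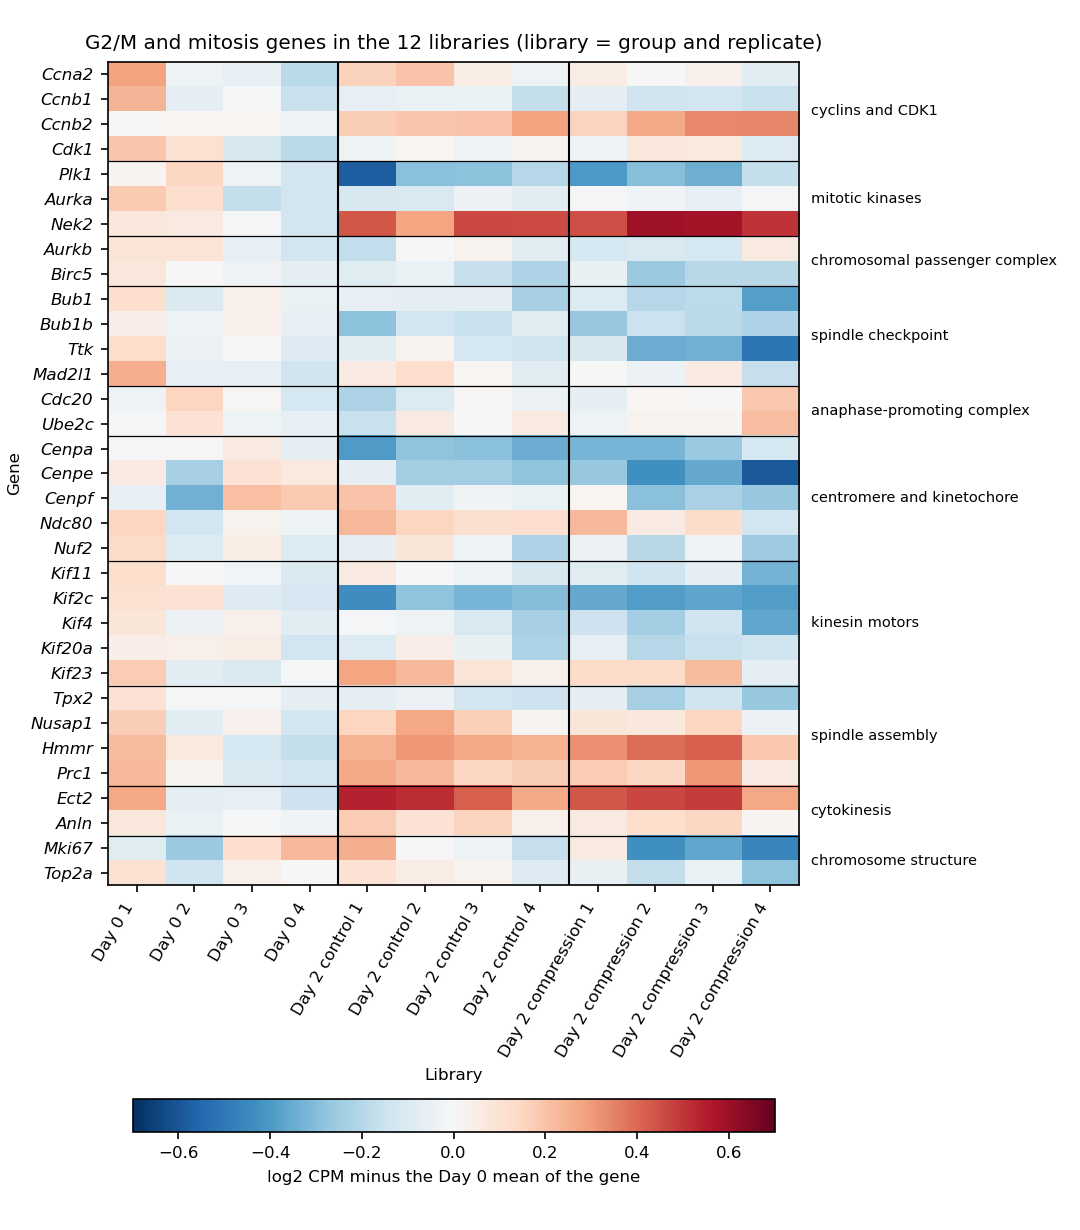
Log2 CPM of each of the 33 genes (rows, ordered by role) in each of the 12 libraries (columns, group and replicate), minus the gene's Day 0 mean. Ccnb2, Nek2, Hmmr and Ect2 are red across the 8 Day 2 libraries, Plk1, Cenpa and Kif2c are blue across them, and most other rows are pale in the control columns.

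Between Day 0 and Day 2 in unrestricted culture, a minority of the mitotic genes changed. Of the 33, 4 rose (Ccnb2, Nek2, Hmmr and Ect2), 4 fell (Plk1, Bub1b, Cenpa and Kif2c) and 25 did not pass the test (edgeR quasi-likelihood test, Benjamini-Hochberg adjusted p under 0.05 over all genes). That is 24.2% of the list, against 40.2% of all genes tested, of which 22.6% were called higher and 17.6% lower. The sizes were small: the median log2 difference was -0.02 (0.02 over all genes), the median absolute difference 0.10 (0.25 over all genes), and 0 of 33 passed an absolute log2 difference of 1, which 10.1% of all genes did. Libraries did not overlap between the groups for 3 of the 33 genes upward (9.09%) and 4 downward (12.1%), lower shares than the 20.4% and 17.4% of all genes.

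Between Day 0 and Day 2 under compression, 4 genes rose and 10 fell, which is 42.4% of the list against 49.1% of all genes tested (26.6% higher, 22.5% lower). The 4 that rose were again Ccnb2, Nek2, Hmmr and Ect2. The 10 that fell were Plk1, Birc5, Bub1, Bub1b, Ttk, Cenpa, Cenpe, Kif2c, Kif4 and Tpx2. The median log2 difference was -0.13, beside 0.02 for all genes. Libraries did not overlap for 3 of the 33 genes upward (Ccnb2, Nek2 and Ect2, 9.09%) and 7 downward (Plk1, Bub1b, Ttk, Cenpa, Cenpe, Kif2c and Kif4, 21.2%), where 23.5% and 19.5% of all genes were separate. The upward share was thus below that of all genes and the downward share near it. Both comparisons use the same 4 Day 0 libraries and are therefore not independent of each other.

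**Figure D3:**
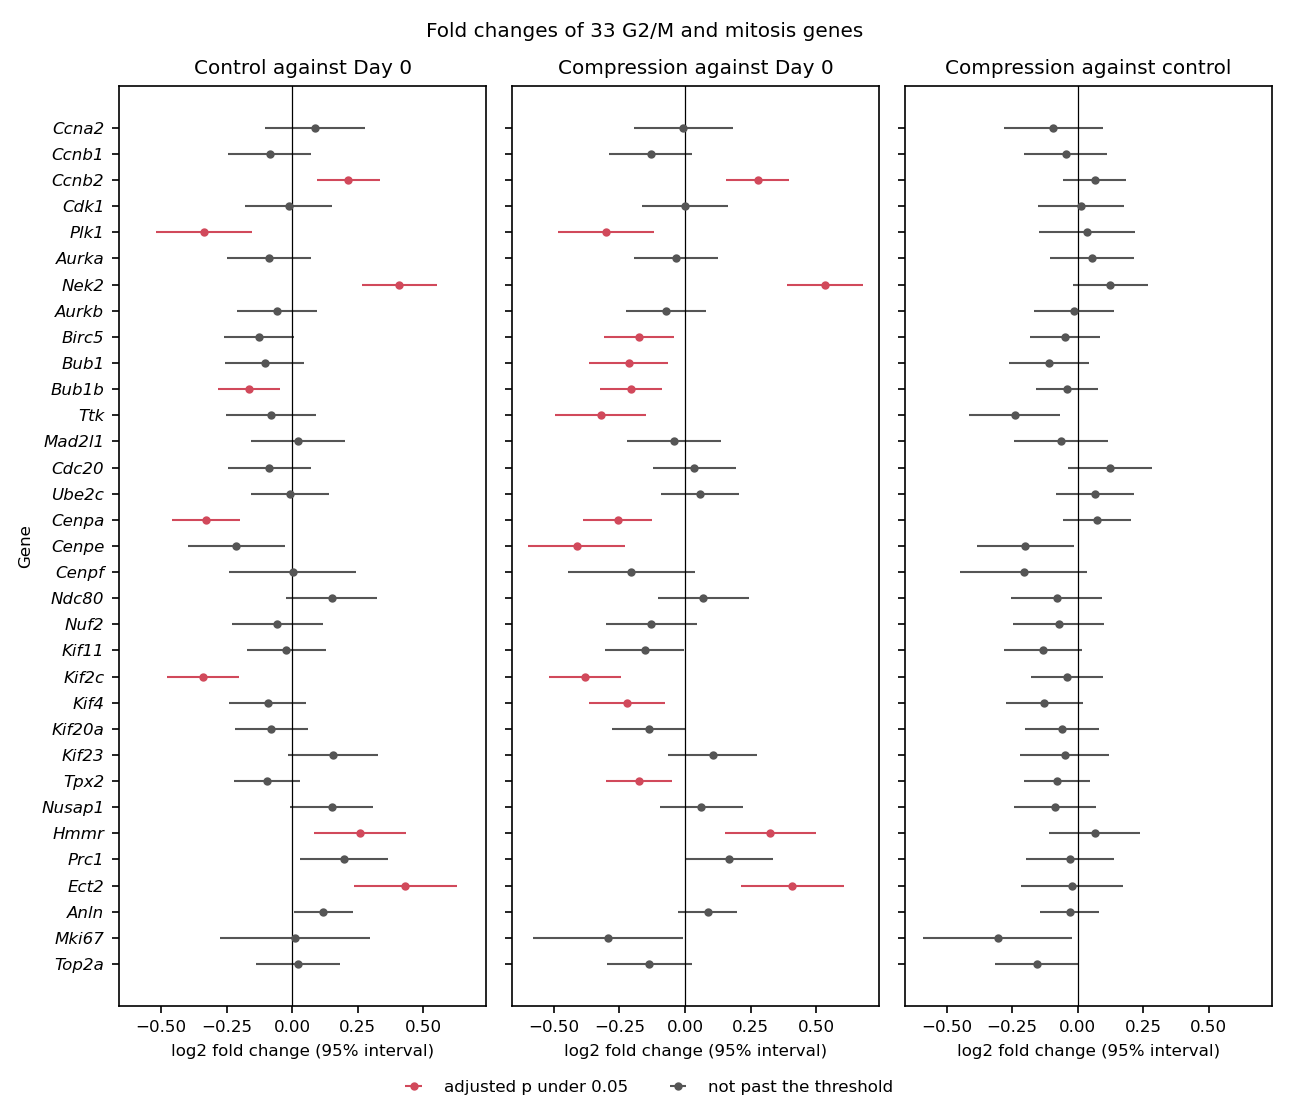
Log2 fold change with its 95% interval (bars) for each of the 33 genes in the 3 comparisons of groups of 4 libraries; red marks adjusted p under 0.05. Control against Day 0 has 8 red points, compression against Day 0 has 14, and compression against control has 0, with 24 of 33 points left of 0.

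Among the cyclins and their kinase, only the B2 cyclin was called with all libraries. Ccnb2 (GRCm38 chr9:70407692-70421547), a mitotic cyclin that is found largely at the Golgi apparatus, measured 64.4, 65.1, 65.0 and 63.6 CPM in the Day 0 libraries, 72.7, 73.9, 74.1 and 78.6 CPM in the controls and 72.0, 77.7, 81.5 and 81.7 CPM in the compressed lungs. All 8 Day 2 libraries lay above the 4 Day 0 libraries, and the control and compression ranges overlapped. It rose by 0.21 ± 0.06 (log2, SE) in controls (adjusted p = 0.008) and by 0.28 ± 0.06 under compression (adjusted p = 0.00107). Its partner gene Ccnb1, whose product starts mitosis with CDK1, stayed within 114 to 151 CPM in every library, with differences of -0.09 (adjusted p = 0.386) and -0.13 (adjusted p = 0.156). The latter became a call in 1 of 22 alternative settings, without Day 0 replicate 4 (-0.20, adjusted p = 0.028). Cdk1 itself averaged 155 ± 19.1 CPM at Day 0, 154 ± 3.15 CPM in control lungs and 155 ± 8.53 CPM in compressed lungs. Its 95% interval for control against Day 0 ran from -0.18 to 0.15. Ccna2, the cyclin of S and G2 phase, averaged 245 ± 35.3, 261 ± 19.1 and 244 ± 9.32 CPM, and 12.5% of its exon length is shared with Exosc9 on the other strand, whose reads cannot be told apart here.

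The 3 mitotic kinases went different ways. Nek2 (chr1:191821444-191833050), which separates the centrosomes before the spindle forms, measured 50.4, 49.8, 47.3 and 43.6 CPM in the Day 0 libraries, 64.5, 57.9, 65.8 and 65.5 CPM in the controls and 65.2, 71.9, 71.5 and 67.7 CPM in the compressed lungs. The Day 0 libraries were the 4 lowest, control replicate 2 was the lowest at Day 2, and the 2 Day 2 groups overlapped. It rose by 0.41 ± 0.07 (32.8%) in controls (adjusted p = 0.00031) and by 0.53 ± 0.07 (44.7%) under compression (adjusted p = 2.62e-05), the largest rise in the list under compression. Plk1 (chr7:122159439-122169873), the polo-like kinase needed for mitotic entry, spindle poles and cytokinesis, measured 110, 119, 105 and 98.5 CPM in the Day 0 libraries, 72.5, 88.3, 88.4 and 93.9 CPM in the controls and 81.6, 87.7, 85.3 and 96.3 CPM in the compressed lungs. Every Day 2 library lay below every Day 0 library, the lowest being control replicate 1. It fell by 0.34 ± 0.09 in controls (adjusted p = 0.00668) and by 0.30 ± 0.09 under compression (adjusted p = 0.00983). Aurka, the kinase of the spindle poles, averaged 74.8 ± 9.03, 70.2 ± 1.66 and 73.0 ± 1.03 CPM in the 3 groups and was called in neither comparison (adjusted p = 0.364 and 0.734).

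The chromosomal passenger complex corrects faulty attachments and then moves to the midzone. Its kinase Aurkb averaged 93.5 ± 7.10, 89.9 ± 5.42 and 88.9 ± 5.74 CPM with no call. Birc5, which encodes survivin, measured 87.7, 83.2, 81.6 and 79.3 CPM in the Day 0 libraries, 78.1, 80.2, 74.1 and 71.5 CPM in the controls and 79.9, 69.2, 72.5 and 72.5 CPM in the compressed lungs. The compression values lay low but compression replicate 1 overlapped the Day 0 range. It fell by 0.17 ± 0.06 under compression (adjusted p = 0.0328), a call that was lost with upper-quartile scaling (adjusted p = 0.0806), with compression replicates 2 and 3 summed (0.0528), without Day 0 replicate 2 (0.0588) and without compression replicate 2 (0.0632). In controls the difference was -0.13 (adjusted p = 0.123).

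The spindle checkpoint, which delays anaphase until every kinetochore is attached, had 3 of its 4 genes called lower under compression than at Day 0 (22.5% of all genes were) and 1 of 4 in controls (17.6% of all genes). Bub1b (chr2:118598211-118641591), which encodes the checkpoint protein BUBR1, measured 217, 206, 215 and 202 CPM in the Day 0 libraries, 172, 191, 189 and 197 CPM in the controls and 174, 189, 184 and 181 CPM in the compressed lungs. The 4 Day 0 libraries were the 4 highest. It fell by 0.17 ± 0.06 in controls (adjusted p = 0.0272, but 0.0627 without control replicate 1) and by 0.21 ± 0.06 under compression (adjusted p = 0.00691). Ttk (chr9:83834689-83872389), the kinase MPS1 at the head of the checkpoint, measured 88.5, 78.9, 81.5 and 76.4 CPM in the Day 0 libraries, 76.8, 82.5, 74.5 and 73.6 CPM in the controls and 75.2, 63.7, 64.4 and 57.1 CPM in the compressed lungs. Controls overlapped Day 0, whereas all compression libraries lay below Day 0, replicate 4 being the lowest and replicate 1 close to the controls. The difference was -0.08 in controls (adjusted p = 0.454), and Ttk fell by 0.32 ± 0.08 under compression (adjusted p = 0.00479). Bub1, the kinase that recruits the others to kinetochores, measured 159, 137, 150 and 142 CPM in the Day 0 libraries, 141, 141, 140 and 125 CPM in the controls and 137, 128, 129 and 112 CPM in the compressed lungs. The compression libraries were mostly the lower ones, with replicate 1 at the edge of the Day 0 range. It fell by 0.22 ± 0.07 under compression (adjusted p = 0.0214) with a difference of -0.11 in controls (adjusted p = 0.256). Mad2l1, which encodes the inhibitor of the anaphase-promoting complex, averaged 106 ± 13.4, 107 ± 6.13 and 103 ± 6.51 CPM.

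The partners of the anaphase-promoting complex in the list, its activator Cdc20 and its ubiquitin-conjugating enzyme Ube2c, were not called. Cdc20 averaged 117 ± 9.31, 110 ± 7.29 and 120 ± 9.38 CPM and Ube2c 111 ± 5.45, 110 ± 7.69 and 116 ± 9.13 CPM. Compression replicate 4 had the highest value of all 12 libraries for both, at 133 and 129 CPM. Ube2c shares 22.8% of its exon length with Tnnc2 on the opposite strand.

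Of the 5 centromere and kinetochore genes, Cenpa was lower at Day 2 in both groups and Cenpe under compression. Cenpa (chr5:30666777-30674830), the histone H3 variant that marks the centromere, measured 88.3, 89.5, 93.1 and 85.2 CPM in the Day 0 libraries, 67.6, 73.2, 72.6 and 69.9 CPM in the controls and 70.9, 71.1, 74.2 and 81.7 CPM in the compressed lungs. All Day 2 libraries were below all Day 0 libraries, and compression replicate 4 was the highest of the 8. It fell by 0.33 ± 0.06 in controls (adjusted p = 0.000724) and by 0.26 ± 0.06 under compression (adjusted p = 0.00315). Cenpe (chr3:135212537-135273611), the kinesin that carries chromosomes to the spindle equator, measured 240, 195, 246 and 240 CPM in the Day 0 libraries, 219, 194, 194 and 189 CPM in the controls and 191, 170, 179 and 153 CPM in the compressed lungs. Day 0 replicate 2 lay apart from the other 3 and inside the control range, while all compression values were below it. Cenpe fell by 0.41 ± 0.09 under compression (adjusted p = 0.00135), the largest fall of the list in that comparison. In controls the difference was -0.21 ± 0.09 (adjusted p = 0.0617), and this became a call in 8 of 22 alternative settings, for example without Day 0 replicate 2 (-0.28, adjusted p = 0.0122). Cenpf, a large kinetochore and nuclear matrix protein, measured 242, 200, 293 and 286 CPM in the Day 0 libraries, 291, 240, 248 and 244 CPM in the controls and 255, 207, 216 and 210 CPM in the compressed lungs, with groups that overlapped and no call (adjusted p = 0.992 and 0.149). Under compression against Day 0 it was called without Day 0 replicate 2 (-0.31, adjusted p = 0.0208), without compression replicate 1 (-0.30, adjusted p = 0.0449) and by voom (-0.31, adjusted p = 0.00934). Compression replicates 2 and 3, the closest pair of libraries, entered these fits as 2 samples. Ndc80 and Nuf2, which form the arm of the kinetochore that grips microtubules, averaged 49.2 ± 4.05 and 79.8 ± 6.34 CPM at Day 0, 54.6 ± 2.14 and 76.7 ± 6.6 CPM in control lungs and 51.7 ± 5.37 and 73.0 ± 5.73 CPM in compressed lungs, with no call.

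**Figure D4:**
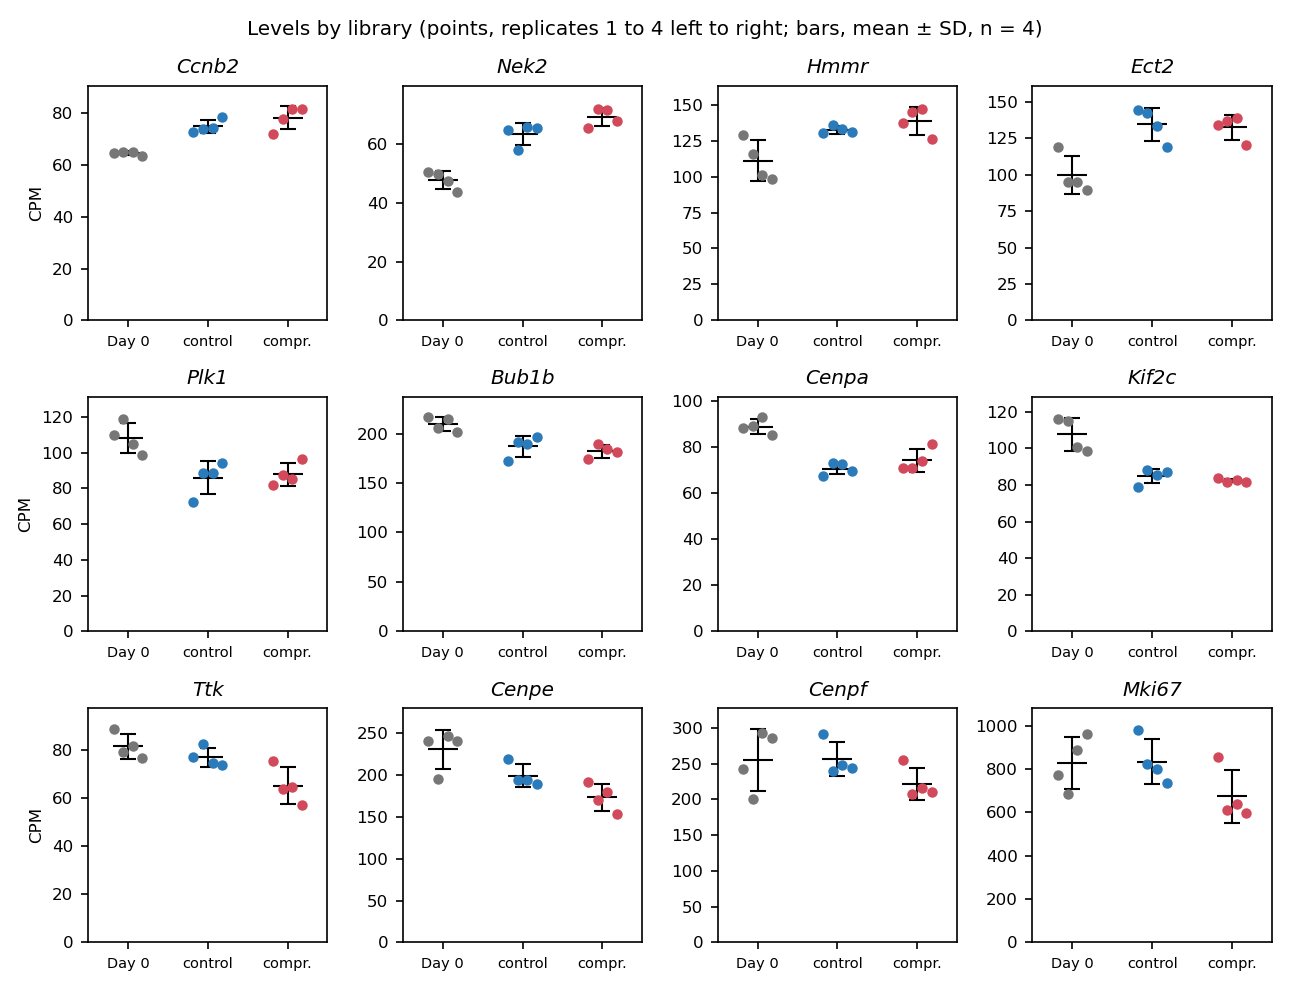
CPM of 12 of the genes in each library (points, replicates 1 to 4 from left to right) with the group mean ± SD (n = 4), on axes that start at 0. The top row shows the 4 genes that rose, with Day 0 below most Day 2 points; the middle row shows the 4 that fell in both comparisons; the bottom row shows Ttk, Cenpe, Cenpf and Mki67, whose compression replicates 2 to 4 sit low while replicate 1 sits near the controls.

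Kinesin motors separate the poles, remove microtubule ends and build the midzone. Kif2c (chr4:117159639-117182639), a microtubule depolymerase at the centromere, measured 116, 115, 101 and 98.6 CPM in the Day 0 libraries, 79.2, 88.0, 85.4 and 86.9 CPM in the controls and 83.6, 81.8, 82.9 and 81.7 CPM in the compressed lungs. The groups at Day 2 lay together, entirely below Day 0. It fell by 0.34 ± 0.06 in controls (adjusted p = 0.000849) and by 0.38 ± 0.06 under compression (adjusted p = 0.000265). Kif4 (chrX:100625737-100727214), a chromosome-bound motor that also limits the length of the midzone, measured 114, 104, 110 and 102 CPM in the Day 0 libraries, 107, 105, 100 and 91.5 CPM in the controls and 97.1, 91.2, 97.4 and 83.6 CPM in the compressed lungs. Compression values were all below Day 0 and controls overlapped both. It fell by 0.22 ± 0.07 under compression (adjusted p = 0.0156) and differed by -0.09 in controls (adjusted p = 0.296). Kif4 shares 15.1% of its exon length with Pdzd11 on the opposite strand. The other 3 motors were not called in either comparison with all libraries in edgeR. Under compression against Day 0, Kif11 became a call in 6 of 22 alternative settings (with DESeq2 -0.17, adjusted p = 0.0366), Kif20a in 4 (with DESeq2 -0.16, adjusted p = 0.0483) and Kif23 in 1 (voom, 0.19, adjusted p = 0.0179). Kif11, which pushes the poles apart, averaged 205 ± 13.4, 202 ± 10.3 and 185 ± 15.1 CPM. Kif20a averaged 176 ± 10.7, 166 ± 12.8 and 159 ± 6.59 CPM, with 29.3% of its exon length shared with Cdc23 on the other strand. Kif23, a part of centralspindlin, the midzone complex that recruits ECT2, averaged 158 ± 14.2, 176 ± 13.8 and 170 ± 13.8 CPM.

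Of the 4 spindle assembly genes, Hmmr rose and Tpx2 fell. Hmmr (chr11:40701395-40733422), a hyaluronan receptor and spindle protein that acts with TPX2 and the Aurora A kinase, measured 129, 116, 101 and 98.0 CPM in the Day 0 libraries, 130, 136, 133 and 131 CPM in the controls and 137, 145, 147 and 126 CPM in the compressed lungs. Controls lay just above the highest Day 0 value, in replicate 1, and compression replicate 4 lay just below it. It rose by 0.26 ± 0.08 in controls (adjusted p = 0.0205) and by 0.32 ± 0.08 under compression (adjusted p = 0.00458). In controls the call was lost without Day 0 replicate 3 (adjusted p = 0.0694), Day 0 replicate 4 (0.0648), control replicate 2 (0.0584) or control replicate 3 (0.0529). Tpx2, the activator of Aurora A on the spindle, measured 265, 245, 245 and 236 CPM in the Day 0 libraries, 236, 241, 226 and 224 CPM in the controls and 237, 211, 224 and 206 CPM in the compressed lungs. Compression replicate 1 was the only compression value within the Day 0 range. It fell by 0.18 ± 0.06 under compression (adjusted p = 0.0237, and 0.0568 with upper-quartile scaling) and differed by -0.10 in controls (adjusted p = 0.208). Nusap1, a microtubule bundler, averaged 130 ± 12.1, 144 ± 10.3 and 136 ± 7.34 CPM. In controls it became a call in 1 of 22 alternative settings, without Day 0 replicate 1 (0.19, adjusted p = 0.0404). Prc1, which cross-links the midzone, averaged 158 ± 18.6, 181 ± 6.67 and 177 ± 12.7 CPM and missed the threshold in both comparisons (adjusted p = 0.0595 and 0.0904). Without Day 0 replicate 1, the highest of its group, Prc1 was called in both (log2 differences 0.25 and 0.22, adjusted p = 0.00688 and 0.0117). In all it was called in 5 and 3 of 22 alternative settings. Prc1 shares 11.1% of its exon length with Rccd1 on the opposite strand.

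In cytokinesis, Ect2 (chr3:27097222-27153878), the exchange factor that activates RhoA at the cleavage furrow, measured 119, 94.6, 95.1 and 89.7 CPM in the Day 0 libraries, 144, 142, 133 and 119 CPM in the controls and 134, 137, 139 and 120 CPM in the compressed lungs. Day 0 replicate 1 and control replicate 4 were both at 119 CPM, and the other libraries of the 2 groups were separate. Ect2 rose by 0.43 ± 0.09 (34.9%) in controls (adjusted p = 0.00196) and by 0.41 ± 0.09 (32.9%) under compression (adjusted p = 0.00217). Anln, which encodes the furrow scaffold anillin, averaged 157 ± 6.20, 170 ± 7.31 and 167 ± 6.55 CPM and missed the threshold (adjusted p = 0.0851 and 0.182), which it passed in 2 of 22 alternative settings in each comparison.

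The 2 genes of chromosome structure are the most abundant of the list by read count. Mki67, whose product Ki-67 coats mitotic chromosomes and is the usual stain for cycling cells, measured 774, 686, 890 and 961 CPM in the Day 0 libraries, 980, 822, 801 and 734 CPM in the controls and 857, 610, 637 and 595 CPM in the compressed lungs. Day 0 and controls covered almost the same range, compression replicates 2, 3 and 4 lay below every other library, and compression replicate 1 lay among the controls. The difference from Day 0 was 0.01 in controls (adjusted p = 0.953) and -0.30 ± 0.13 under compression (adjusted p = 0.0814). With all libraries the latter was a call by DESeq2 (-0.31, adjusted p = 0.0469) and by voom (-0.42, adjusted p = 0.00202). With edgeR it became one without compression replicate 1 (-0.45, adjusted p = 0.00598) and without Day 0 replicate 2 (-0.38, adjusted p = 0.0378). The fit without compression replicate 1 rests on replicates 2, 3 and 4, of which 2 and 3 were the closest pair of libraries. Whether those are independent samples is not known. Top2a, the topoisomerase that untangles sister chromosomes, measured 942, 794, 897 and 872 CPM in the Day 0 libraries, 938, 907, 888 and 823 CPM in the controls and 845, 779, 847 and 720 CPM in the compressed lungs. The 3 ranges overlapped, with compression replicate 4 lowest and Day 0 replicate 1 highest, and no comparison called it (adjusted p = 0.848 and 0.148).

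Compression against control, which compares hardened with liquid polymer at the same day, showed no called difference in any of the 33 genes: 0 of 33 passed the edgeR test, and 0% of all genes tested did. At an unadjusted p under 0.05, 3 of the 33 were lower under compression and 0 higher, against 5.33% and 6.73% of all genes. They were Ttk, which had a log2 difference of -0.24 ± 0.08 in the edgeR fit (15.4% lower, unadjusted p = 0.01, adjusted p = 0.361), Cenpe with -0.20 ± 0.09 (unadjusted p = 0.0353, adjusted p = 0.39) and Mki67 with -0.31 ± 0.13 (unadjusted p = 0.0374, adjusted p = 0.396). In none of the 33 were the 4 control and 4 compression libraries separate, whereas 5.77% of all genes were. DESeq2 called 0 of the 33 (71 genes in all). Voom with quality weights (limma) called Ttk (adjusted p = 0.0128) and Mki67 (adjusted p = 0.0248) lower, among 1913 genes in all.

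The signs leaned one way. The log2 difference was negative for 24 of the 33, beside 49% of all genes tested, and its median was -0.05, beside 0.00 for all genes. These values describe genes that vary together in the same 8 libraries and carry no test. The 9 positive differences belonged to Ccnb2, Cdk1, Plk1, Aurka, Nek2, Cdc20, Ube2c, Cenpa and Hmmr, the largest being 0.12 for Nek2 and for Cdc20. The 95% intervals are per gene, not adjusted for the number of genes, and take the libraries as independent samples. For Ccnb1 the interval ran from -0.20 to 0.11, for Cdk1 from -0.15 to 0.18 and for Top2a from -0.32 to 0.00. Those of Mki67 (-0.59 to -0.02) and Ttk (-0.41 to -0.07) left out 0 although neither gene was called. Differences outside these intervals are not excluded. The number of genes at an unadjusted p under 0.05 depended on single libraries. It was 9 without compression replicate 1, 5 without control replicate 4, Day 0 replicate 1 or Day 0 replicate 2, and 1 without control replicate 1, compression replicate 2 or compression replicate 4. In the fit that gave 9, compression replicates 2 and 3, the closest pair of libraries, counted as 2 samples.

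Within a group the genes tended to move together from library to library, but not all in the same direction. At Day 0, replicate 1 held the highest value of 23 of the 33 genes and replicate 4 the lowest of 23. Under compression, replicate 4 held the lowest value of 21 genes, Mki67, Cenpe, Ttk, Bub1, Kif11 and Top2a among them. It also held the highest value of 6, Aurkb, Ccnb2, Cdc20, Cenpa, Plk1 and Ube2c. The annotated transcripts (GENCODE, GRCm38) of those 6 are short, with a median of 1662 bases, against 3892 for the 21. Control replicate 1 showed the reverse, with 12 genes highest (median 4712 bases) and 11 lowest (median 1950 bases). Across the 33 genes the log2 difference of compression against control was lower for longer transcripts (Spearman's rho = -0.58 across genes, which are not independent replicates), and across 14641 tested genes with a length rho was -0.23. With the expression level in place of length, rho was -0.48 across the 33 and -0.23 across all, so length and level were not told apart here. The 11 genes with the shortest transcripts (947 to 2489 bases) had a median difference of 0.03, the 11 of 2842 to 3892 bases -0.05, and the 11 longest (4086 to 11130 bases) -0.13, with 5, 9 and 10 negative. For control against Day 0 rho was 0.20 in the 33 genes, and for compression against Day 0 -0.16. Rn45s was 5.64% of counts in compression replicate 4 and 0.553% in compression replicate 1, and the part of RNA handling in the relation with length was not tested.

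Other cell cycle genes place these values. Of 75 further mitotic genes, 12 rose and 6 fell in controls (median log2 difference 0.03), and 6 rose and 12 fell under compression against Day 0 (median -0.02). That is 24% of the list in each comparison, below the 40.2% and 49.1% of all genes. The count of 12 fell to between 5 and 6 when Day 0 replicate 2 or 4 or control replicate 1, 2 or 3 was left out, and the count of 6 that rose under compression to 3 without compression replicate 2 or 3. Voom called 14 higher and 20 lower in that comparison, in which it called 59.8% of all genes. The spindle protein gene Psrc1 (50.8 ± 2.68 CPM at Day 0, 90.1 ± 13.1 in controls and 100 ± 13.2 under compression) and Ckap2 (86.0 ± 9.78, 130 ± 10 and 121 ± 9.81 CPM) rose in both, while Ska3, of the outer kinetochore, fell (46.3 ± 2.60, 37.5 ± 1.78 and 36.4 ± 2.53 CPM). Among 13 condensin and cohesin genes, 2 rose in controls, Ncapd3 (0.25) and Ncapg2 (0.30), and 4 fell under compression, Ncapd2 among them (-0.22), which is 15.4% and 30.8% called. Leaving out Day 0 replicate 3 or control replicate 2 left 1 of the 2. Of 14 subunits of the anaphase-promoting complex, 2 rose and 4 fell in controls, with Anapc11 at 0.32 and Anapc2 at -0.24, and 2 rose and 6 fell under compression (42.9% and 57.1% called). Without Day 0 replicate 3 or 4, 1 of the 2 remained called higher in controls.

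Of 22 genes for transcription factors of the cell cycle (FOXM1, MYB, DREAM, E2F and NF-Y), 4 rose and 8 fell in controls (18.2% and 36.4%, against 22.6% and 17.6% of all genes). Under compression against Day 0, 3 rose and 10 fell (13.6% and 45.5%, against 26.6% and 22.5%). E2F sites were not searched in the promoters. Foxm1, the activator of G2 genes, averaged 154 ± 4.77 CPM at Day 0, 132 ± 6.43 in controls and 125 ± 5.13 under compression (log2 differences -0.22 and -0.30, adjusted p = 0.00442 and 0.000404). Mybl2, which encodes B-MYB, averaged 43.2 ± 2.14, 36.1 ± 3.59 and 35.4 ± 2.35 CPM (-0.26 and -0.29, adjusted p = 0.018 and 0.00784). E2f2 rose from 18.8 ± 1.48 to 32.8 ± 1.91 CPM in controls (0.81 ± 0.08, adjusted p = 4.05e-06), and Rbl1, which encodes a pocket protein of DREAM, rose by 0.39 (adjusted p = 0.000451), while E2f3 fell by 0.28 (adjusted p = 0.000981). Foxm1 and Mybl2 were named here after their values were seen.

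Inhibitors of the cell cycle had the largest median difference from Day 0 of the 8 lists compared, in controls and under compression. Of 13 tested, 9 rose and 1 fell in controls (median 0.63) and 11 rose and 1 fell under compression against Day 0 (median 0.60). That is 76.9% and 92.3% called, against 40.2% and 49.1% of all genes. Cdkn1a, the CDK inhibitor induced by p53, measured 31.2, 37.4, 16.8 and 18.9 CPM at Day 0, 151, 138, 181 and 176 CPM in control lungs and 139, 216, 215 and 207 CPM in compressed lungs. All Day 2 libraries were above all Day 0 libraries (log2 differences 2.65 and 2.92, adjusted p = 5.93e-06 and 2.13e-06). The INK4 inhibitor Cdkn2b rose from 0.296 ± 0.0511 to 5.28 ± 1.62 CPM in controls (4.10, adjusted p = 2.38e-06) and Cdkn2c from 10.1 ± 1.64 to 24.6 ± 1.54 CPM (1.28, adjusted p = 1.31e-06). The Day 0 level of Cdkn2b lay near the 3-count limits of those libraries (0.0902 to 0.215 CPM), so the size of its rise is uncertain. The exception was Gas1, which fell by 0.76 in controls (adjusted p = 6.77e-05). In the same comparison the 33 G2/M and mitosis genes had a median of -0.02. The count of 1 that fell was 2 in controls without control replicate 2, and 2 under compression without Day 0 replicate 4, control replicate 2 or 4 or compression replicate 1.

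Of 35 S phase genes, 2 rose and 7 fell in controls (5.71% and 20%, against 22.6% and 17.6% of all genes) and 1 rose and 17 fell under compression against Day 0 (2.86% and 48.6%, against 26.6% and 22.5%). The total called under compression, 51.4%, was near the 49.1% of all genes. An example is Mcm4, of the replicative helicase, at 328 ± 17.1, 269 ± 18.9 and 245 ± 15.1 CPM. In controls the count of 7 was 4 without Day 0 replicate 2, and the count of 2 was 1 without Day 0 replicate 2 or 4, control replicate 1, 2 or 3, or compression replicate 2 or 3. The gene that rose under compression was lost when any of the 12 libraries but compression replicate 4 was left out. Of 9 G1 cyclins and kinases, 0 rose and 4 fell in controls (44.4% called) and 0 rose and 6 fell under compression (66.7% called), with Cdk4 at -0.24 and -0.23. Without Day 0 replicate 1 or control replicate 4, 1 rose in controls. Against control, 0 genes of any list passed the edgeR test under compression. Voom called 9 S phase, 8 other mitotic, 4 condensin and cohesin, 2 G1 and 2 transcription factor genes and 1 subunit of the anaphase-promoting complex lower and 1 inhibitor higher, among the 12.5% of all genes that it called. The medians were -0.11 for S phase, -0.13 for condensin and cohesin, -0.13 for G1 and -0.07 for the other mitotic genes, with 32 of 35, 11 of 13, 6 of 9 and 59 of 75 negative, and 0.13 for the inhibitors, which was 0.04 without compression replicate 4. The lowest adjusted p in these lists was 0.309, for the replication licensing gene Cdc6 (54.9 ± 3.5 CPM in control lungs and 45.7 ± 3.13 CPM in compressed lungs).

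**Figure D5:**
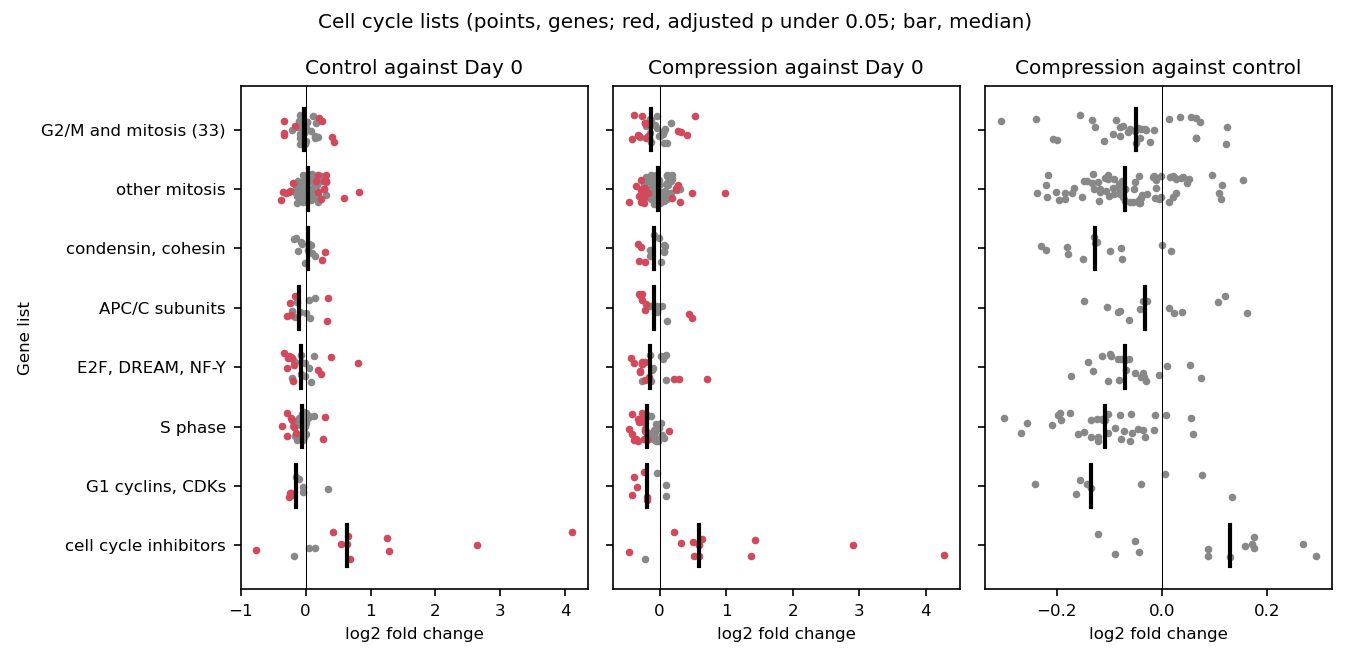
Log2 fold changes of the 33 G2/M and mitosis genes and of 7 other cell cycle lists in the 3 comparisons. Points are genes, red marks adjusted p under 0.05, and the black bar is the list median. Each panel has its own x scale. The inhibitors reach 4.10 in control (Cdkn2b, near the 3-count limit at Day 0) and 4.28 in compression against Day 0. The G2/M and mitosis genes stay within -0.34 and 0.43 in controls, and the right panel holds no red point.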

How the data were processed

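RNA from 12 libraries in 3 groups of 4 was analysed, with groups and replicate numbers taken from the labels. The authors deposited raw read counts per gene symbol, and per the submitters' processing notes they used fastp, STAR and the mm10 build. The program that counted the reads, its annotation and its strand setting were not given in the sources used here. Reads of overlapping genes on opposite strands therefore cannot be told apart.

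Counts were tested with edgeR 4.0.16 in R 4.3.3: genes were kept by filterByExpr by group (minimum count 10, minimum total 15), libraries were scaled with TMM factors, and all 12 entered 1 robust quasi-likelihood fit with group as the only term. P-values were adjusted over all 15246 genes by the Benjamini-Hochberg method at 0.05. CPM uses the scaled library sizes. Log2 CPM in the heat map uses a prior count of 2. Group values are mean ± SD (n = 4), fold changes are log2 ± SE with 95% intervals, and the 3-count limits cover counting error only. The SE was derived from the quasi-likelihood test, as the absolute log2 fold change divided by the square root of its F statistic. The intervals use this SE and the t distribution. The script was tested on simulated counts. Alternatives were RLE, upper-quartile or no scaling factors, DESeq2 1.42.0, voom with quality weights (limma 3.58.1), no filter, at least 1 CPM in 4 libraries, fits of 2 groups, compression replicates 2 and 3 summed, a replicate block, and each library left out. Positions and the longest principal transcript of each gene came by symbol from GENCODE (GRCm38), which matched all 33 genes. Mad2l1 was left out of comparisons of levels per kilobase because its annotated transcript (7557 bases) is unusually long. It was kept in the relation with transcript length, among the 11 longest. Promoter windows are RefSeq's.

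The 33 genes and the other cell cycle and marker lists were chosen with earlier results of these data known, so no list is tested as a set. Named are all 33 genes and, of each other cell cycle list, the 3 genes with the smallest p in control against Day 0 and in compression against control, from which examples are given.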

Additional observations from a re-analysis of the deposited data

Results flagged for a closer look

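In 9 of 99 combinations of a gene and a group, 1 library lay far from the other 3 (its gap to the nearest, divided by the range of the 4, was above Dixon's critical value). Chance flags about 1 in 20 groups, and the 33 genes share their libraries. Mki67 was 857 CPM in compression replicate 1 and 595 to 637 CPM in the other 3. Aurkb was 97.5 CPM in compression replicate 4 against 85.8 to 86.6 CPM. In controls, Cenpe was 219 CPM and Cenpf 291 CPM in replicate 1, against 189 to 194 and 240 to 248 CPM. Control replicate 4 was low for Ccnb1 (114 CPM, others 123 to 124) and for Bub1 (125 CPM, others 140 to 141), and control replicate 2 was low for Nek2 (57.9 CPM, others 64.5 to 65.8). At Day 0, Cenpe was 195 CPM in replicate 2 (others 240 to 246) and Kif20a 160 CPM in replicate 4 (others 180 to 182).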

How the results depend on the processing

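Every gene called with all libraries kept its direction in all 22 alternatives. Under compression against control, 0 of the 33 were called in 21 of the 22, and voom with quality weights called 2, both lower. Against Day 0 under compression, voom called 7 genes higher and 13 lower, where edgeR called 4 and 10. Of all genes, voom called 59.8% in that comparison and edgeR 49.1%. Calls for control against Day 0 ranged from 7 to 11 and for compression against Day 0 from 13 to 20. Over the same alternatives, the share of all genes called ranged from 30 to 44.4% and from 37.3 to 59.8%. The median difference of control against Day 0 was between -0.089 and -0.032 when a library was left out, the lower value without Day 0 replicate 4. The cause was not tested.

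The labels do not say whether equal replicate numbers mark shared animals. Deviations of same-numbered libraries correlated at -0.18 to 0.17, and those of differently numbered ones at -0.27 to 0.18. Between Day 0 and control, same-numbered libraries correlated at 0.05 to 0.11. Such correlations cannot tell whether libraries share an origin. With a replicate block, 0, 10 and 15 genes were called (compression against control, control against Day 0, compression against Day 0), beside 0%, 43.1% and 51.8% of all genes. The medians were -0.047, -0.022 and -0.125, and Ccna2 changed sign to 0.002 for compression against Day 0.

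Signs changed only in genes that were not called. For compression against control these were Aurkb (0.004 with upper-quartile factors), Plk1 (-0.008), Kif23 (0.024), Prc1 (0.01) and Ect2 (0.045) with voom, and Cdk1 (-0.009 with replicates 2 and 3 summed). Leaving out libraries gave Plk1 -0.037 to 0.087, Ect2 -0.068 to 0.025, Aurkb -0.062 to 0.018, Cdk1 -0.01 to 0.046, Kif23 -0.088 to 0.003 and Prc1 -0.074 to 0.007. For control against Day 0, Cenpf was -0.018 (RLE), -0.016 (DESeq2), -0.07 (voom), -0.009 (no filter), -0.005 (1 CPM filter), -0.008 (fit of 2 groups) and -0.016 (summed). Mki67 was -0.008 (RLE), -0.006 (DESeq2), -0.062 (voom) and -0.006 (summed). Cdk1 was 0.008 (upper quartile), 0.005 (library totals) and 0.039 (voom), Ube2c 0.012, 0.009 and 0.018, and Aurkb 0.002 (voom). Leaving out libraries gave Cdk1 -0.089 to 0.03, Cenpf -0.098 to 0.056, Mki67 -0.088 to 0.075, Ube2c -0.047 to 0.027, Top2a -0.023 to 0.038 and Mad2l1 -0.04 to 0.092. For compression against Day 0, Ccna2 was 0.033 (upper quartile), 0.005 (library totals) and 0.049 (voom), Aurka 0.006 (upper quartile) and 0.031 (voom), and Mad2l1 0.024 (voom). Leaving out libraries gave Ccna2 -0.086 to 0.069, Aurka -0.108 to 0.003, Mad2l1 -0.107 to 0.024, Cdc20 -0.038 to 0.086, Ndc80 -0.006 to 0.116 and Ube2c -0.017 to 0.092.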
